A study of Mus musculus with 23 samples.

Results

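Aldehyde detoxification and NRF2 target genes were followed as a set of 10 genes among the 24062 gene symbols of the count table: Aldh3a1, Aldh3a2, Aldh2, Glo1, Hagh, Akr1b3, Nqo1, Gclc, Gclm and Hmox1. Aldh3a1 and Glo1 had been picked for their difference in mutant muscle, and the other 8 as related detoxification genes. The muscle values of those 2 genes are therefore described with no test, here and wherever muscle libraries are compared. In each tissue 9 of the 10 genes passed the filter on low counts and were tested. The exception was Akr1b3, which had 1 count in all 23 libraries.

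Reactive aldehydes and dicarbonyls form when lipids are peroxidised and when sugars break down, and they damage proteins and DNA. Aldehyde dehydrogenases oxidise aldehydes to acids, aldo-keto reductases reduce them to alcohols, and the glyoxalase system turns methylglyoxal into lactate with glutathione as cofactor. NRF2 (gene Nfe2l2) is a transcription factor that KEAP1 marks for degradation under resting conditions. Electrophiles disable KEAP1, and NRF2 then binds antioxidant response elements of genes for quinone reduction, glutathione synthesis and haem breakdown, sites that BACH1 can occupy as a repressor.

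RNA of gastrocnemius, a hind limb muscle, and of fat (IAT in the labels, where the abbreviation is not spelled out) was sequenced from mice aged 8 to 10 months on a mixed 129Sve and C57BL/6 background. WT mice carried wild-type Bub1b, the gene of the spindle checkpoint protein BubR1. In HH mice both copies were the hypomorphic H allele, which makes little BubR1, and in HL1002P mice an H allele stood beside L1002P, a missense allele. There were 4 libraries of each genotype and tissue except HH muscle, which had 3. The labels name no treatment, and they record neither sex nor which libraries of different tissues came from the same mouse. Replicates were given only as separate samples, so p-values measure the spread between these samples.

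Library totals were 34.1 to 55.3 M counts in muscle and 22.6 to 58.8 M in fat. Levels are normalised read counts (CPM, scaled to library sizes adjusted by the trimmed mean of M-values). Bub1b, the check of the labels, was at 0.726 to 0.952 CPM in WT muscle, 0.181 to 0.273 in HL1002P muscle and 0.326 to 0.52 in HH muscle, with no overlap between the groups. In fat its groups overlapped, at 7.08 to 11.6, 6.12 to 22.1 and 5.96 to 14.3 CPM. The fat means were 9.875 CPM in WT, 17.2 in HL1002P and 10.2 in HH, so neither mutant was below WT. Bub1b levels therefore give no check of the genotype labels in fat. All 11 muscle fibre markers were detected in muscle, with summed levels of 130400 to 177900 CPM, and all 11 adipocyte markers in fat, with 15070 to 56190 CPM. Xist exceeded the Y-linked transcripts in 5 muscle libraries (WT 3 and 4, HL1002P 3 and 4, HH 3) and 4 fat libraries (WT 3 and 4, HL1002P 4, HH 4). Across genes the fat library HL1002P 4 correlated best with fat WT 3, not with a library of its own group, and results that rest on it are given with and without it. It was also the only HL1002P fat library in which Xist exceeded the Y-linked transcripts. Leaving it out thus also changes the balance of sex between HL1002P and WT fat.

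The genes lie on 7 chromosomes of GRCm38 (mm10), at the positions RefSeq gives, and exon lengths are those of GENCODE M21. Aldh3a1 (chr11:61208510-61218418, plus strand) and Aldh3a2 (chr11:61223417-61267528, minus strand) are neighbours, and Aldh2 is at chr5:121566027-121593824. The glyoxalase genes share a chromosome, with Glo1 at chr17:30592861-30612659 and Hagh at chr17:24839781-24864450. Nqo1 (chr8:107388225-107403205) and Hmox1 (chr8:75093618-75100593) also share a chromosome. Gclc is at chr9:77754535-77794489, Gclm at chr3:122245487-122267215 and Akr1b3 at chr6:34303930-34317489.

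Promoters are shown for Glo1, Nqo1 and Gclm, the members with a RefSeq promoter entry whose mutant and WT libraries did not overlap in a tissue. Each is the 250 bases upstream of the start in RefSeq's promoter table for GRCm38.p6 (the mm10 assembly), written 5′ to 3′ on the gene's strand. For Gclm that start is 122245557, which is 70 bases inside the gene as placed above from its earliest RefSeq start. The Glo1 stretch is chr17:30612660-30612909 (minus strand), that of Nqo1 chr8:107403206-107403455 (minus strand) and that of Gclm chr3:122245307-122245556 (plus strand). Capitals mark matches on either strand to the antioxidant response element core TGACNNNGC and to the xenobiotic response element core GCGTG, the letters bound by the aryl hydrocarbon receptor.
Glo1: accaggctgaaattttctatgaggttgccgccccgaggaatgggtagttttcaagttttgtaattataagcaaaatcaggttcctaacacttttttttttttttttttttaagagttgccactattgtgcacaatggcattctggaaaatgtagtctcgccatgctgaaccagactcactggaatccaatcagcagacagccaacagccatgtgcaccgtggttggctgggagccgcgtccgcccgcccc
Nqo1: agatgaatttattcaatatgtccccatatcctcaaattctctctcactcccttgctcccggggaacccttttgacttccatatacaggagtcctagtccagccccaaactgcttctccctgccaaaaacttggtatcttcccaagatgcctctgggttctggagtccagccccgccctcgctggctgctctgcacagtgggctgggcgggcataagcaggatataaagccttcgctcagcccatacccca
Gclm: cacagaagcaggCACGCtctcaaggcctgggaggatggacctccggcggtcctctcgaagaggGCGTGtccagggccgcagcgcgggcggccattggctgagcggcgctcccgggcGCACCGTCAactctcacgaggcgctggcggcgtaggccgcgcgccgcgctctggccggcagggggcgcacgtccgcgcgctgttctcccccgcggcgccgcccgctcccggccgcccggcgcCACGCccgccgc
Only the Gclm stretch of these 3 holds a match. It has 1 antioxidant match, GCACCGTCA on this strand, 134 bases upstream of the start at 122245557 and 64 bases upstream of the earlier start. Its 3 matches to GCGTG or its complement CACGC lie 238, 187 and 12 bases upstream of the start at 122245557, and the last of them is downstream of the earlier start. Of 32851 RefSeq promoters of this length, 10.2% hold the antioxidant letters and 28.2% the xenobiotic letters. The other 2 members with an entry were Aldh3a2 and Hagh, whose windows held GCGTG or CACGC and no TGACNNNGC. A match in these letters is a description of the sequence, not a measured binding site.

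Per kilobase of exon, Aldh2, the mitochondrial acetaldehyde dehydrogenase, was the most abundant member in WT muscle at 49.5 ± 11.1 CPM per kb (mean ± SD, n = 4). Hagh (39.2 ± 3.45) and Nqo1 (30.0 ± 3.83) followed, then Glo1 (20.6 ± 1.26), Hmox1 (4.62 ± 0.98), Gclc (3.84 ± 0.54), Aldh3a2 (2.25 ± 0.28), Gclm (1.86 ± 0.26) and Aldh3a1 (0.184 ± 0.084 CPM per kb). The ranges of Aldh2 and Hagh overlapped, as did those of Hmox1 and Gclc and those of Aldh3a2 and Gclm. Glo1 owed its place to the annotation: with its shortest transcript (0.895 kb) in place of all its exons (10.1 kb) its level was 232.7 CPM per kb, the highest of the set. In WT fat the order was Aldh2 (187.6 ± 39.4 CPM per kb), Hagh (63.2 ± 13.5), Hmox1 (48.4 ± 22.01), Aldh3a2 (16.3 ± 2.34), Gclc (15.3 ± 6.70), Glo1 (10.8 ± 2.33), Nqo1 (8.91 ± 3.74), Gclm (5.02 ± 0.57) and Aldh3a1 (0.314 ± 0.055). There Hagh overlapped with Hmox1, and so did the neighbours in the order Aldh3a2 and Gclc, Gclc and Glo1, and Glo1 and Nqo1.

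Akr1b3, the mouse aldose reductase, could not be read from this table. Its single count lay in the fat WT 1 library (0.022 CPM), and in the other 22 libraries the 0 allows up to 3 counts, which is 0.051 to 0.133 CPM. Of the 50-base stretches of its transcript 86.2% also occur in transcripts of 5 other GENCODE genes, 4 of them processed pseudogenes, so the counting of reads that map to several places bears on its level. Neither the annotation nor the treatment of such reads is given in the sources used here. The shares were 10.4% for Glo1, 2.1% for Aldh2, 0.8% for Gclm and 0 for the other 6 members.

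In mutant muscle the 2 chosen genes differed from WT as they had been picked to do, Aldh3a1 upward and Glo1 downward, and none of the 7 other members passed the edgeR test in either mutant. Among those 7, the libraries of Nqo1 and Hmox1 did not overlap with WT, and those of the other 5 did. Of all genes 5.66% did not overlap in HL1002P and 13.9% in HH. Aldh3a1 encodes a cytosolic dehydrogenase of medium-chain and aromatic aldehydes, best known from cornea and stomach. It was at 0.177, 0.366, 0.545 and 0.279 CPM in the WT libraries, 2.82, 2.46, 3.29 and 3.02 in HL1002P, and 1.70, 0.855 and 1.47 in HH. The 3 groups did not overlap, and the lowest mutant library (HH 2) lay above the highest WT library. The means were 8.48 times the WT mean in HL1002P (log2 3.08 ± 0.34, SE) and 3.92 times in HH (log2 1.97 ± 0.35). These levels rest on 62, 514 and 184 counts in all for WT, HL1002P and HH. Both mutants are set against the same WT libraries here and below.

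Epithelial markers also differed in level between WT and mutant muscle. Their summed level (11 genes) was 5.38, 4.58, 6.12 and 5.58 CPM in WT, 159.7, 10.2, 14.6 and 14.5 in HL1002P, and 51.7, 14.9 and 13.6 in HH, with no overlap with WT. HL1002P 1 and HH 1 stood far above the rest, whereas Aldh3a1 in HL1002P 1 (2.82 CPM) was within the range of its group and that in HH 1 (1.70 CPM) was the highest of HH. Of the 4 markers that passed the filter on low counts none was called, beside 0.117% of all genes in HL1002P and 0.377% in HH. Their median log2 difference was 3.27 in HL1002P and 2.62 in HH. Krt18 (0.646 CPM in WT, 33.02 in HL1002P and 16.1 in HH) and Krt8 (0.219, 12 and 6.25 CPM), the keratins of simple epithelia, made up most of the sums in the mutants. Epcam and Krt14 were at or under 0.158 CPM in every group mean, Krt5 was at 0 in both mutants, and Csn2 and Wap were at 0 in all groups. The part of these markers in the Aldh3a1 values was not tested.

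Glo1 encodes glyoxalase I, which acts on the adduct that methylglyoxal forms with glutathione. Its muscle levels were 213.6, 189.2, 214.2 and 216 CPM in WT, 129.6, 135.9, 119.6 and 121.7 in HL1002P, and 108.3, 129.8 and 112.5 in HH. Every mutant library was below every WT library by at least the gap between 135.9 and 189.2 CPM. The log2 differences from WT were -0.72 ± 0.09 in HL1002P and -0.83 ± 0.10 in HH. Hagh, glyoxalase II, which completes the pathway, was at 50.1 ± 4.41 CPM in WT (SD, n = 4), 50.7 ± 7.80 in HL1002P (n = 4) and 52.7 ± 8.40 in HH (n = 3), and its groups overlapped.

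Of the 7 members tested in muscle apart from Aldh3a1 and Glo1, edgeR called 0 in HL1002P and 0 in HH at an adjusted p under 0.05, where 0.117% (0.0754% higher, 0.0412% lower) and 0.377% (0.199% higher, 0.178% lower) of all 14580 genes were called. At an unadjusted p under 0.05 they were 2 in HL1002P (Nqo1 and Hmox1) and 3 in HH (Nqo1, Gclm and Hmox1), beside 10.5% and 16.6% of all genes. DESeq2 called 1 of the 7 in each, Nqo1, and limma voom 0. Of all 14580 genes DESeq2 called 188 in HL1002P and 653 in HH, and limma voom 9 and 44. Nqo1 encodes the quinone reductase that serves as the usual readout of NRF2. It was at 39.3, 53.2, 49.0 and 45.0 CPM in WT muscle, 20.7, 31.1, 25.7 and 30.8 in HL1002P, and 22.7, 27.2 and 30.6 in HH. Neither mutant overlapped with WT, which held for 5.66% of all genes in HL1002P and 13.9% in HH. The log2 difference was -0.78 ± 0.15 in HL1002P (edgeR adjusted p = 0.0957) and -0.80 ± 0.16 in HH (edgeR adjusted p = 0.059). With DESeq2 the adjusted p was 0.000576 and 0.000782.

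Hmox1 encodes haem oxygenase, which is induced by NRF2 when BACH1 leaves its promoter and is also abundant in macrophages. In muscle it was at 5.27, 8.01, 8.82 and 6.88 CPM in WT, 14.9, 9.32, 9.18 and 16.5 in HL1002P, and 19.97, 9.58 and 10.8 in HH. All mutant libraries were above all WT libraries, though 2 HL1002P libraries and HH 2 were close to WT 3. The log2 difference was 0.78 ± 0.27 in HL1002P (edgeR adjusted p = 0.356) and 0.89 ± 0.29 in HH (edgeR adjusted p = 0.16), so neither passed. The summed level of 16 macrophage markers, all detected, was 78.6 to 210.9 CPM in WT, 170.6 to 523.3 in HL1002P and 228.5 to 318.9 in HH. With the macrophage marker level as a covariate, the Hmox1 difference was 0.34 ± 0.31 and 0.59 ± 0.29. In whole tissue, fewer cells of a type and less RNA per cell cannot be told apart.

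Gclc and Gclm encode the catalytic and the modifier subunit of glutamate-cysteine ligase, the first step of glutathione synthesis. Gclc was at 15.5, 13.7, 12.2 and 11.3 CPM in WT muscle and at 22.6, 11.4 and 16.04 in HH, with HH 1 the highest. Gclm was at 12.5, 9.32, 10.0 and 9.61 CPM in WT and 17.5, 11.4 and 14 in HH, again with HH 1 the highest. HL1002P lay within or close to the WT range for both (11.5 to 16.3 and 9.34 to 12.2 CPM). The largest of these differences was Gclm in HH, at log2 0.46 ± 0.16 (edgeR adjusted p = 0.194).

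Aldh3a2, the fatty aldehyde dehydrogenase of the endoplasmic reticulum, and Aldh2 showed no difference beyond the spread. Aldh3a2 was at 12.0 ± 1.51, 12.4 ± 0.83 and 13.8 ± 1.58 CPM in WT, HL1002P and HH muscle. Aldh2 was at 205.8 ± 46.1, 212.0 ± 52.2 and 204.5 ± 15.5 CPM, with 95% intervals of its log2 difference of -0.39 to 0.47 in HL1002P and -0.47 to 0.45 in HH. A change beyond log2 0.47 in either direction is outside both intervals.

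**Figure D1:**
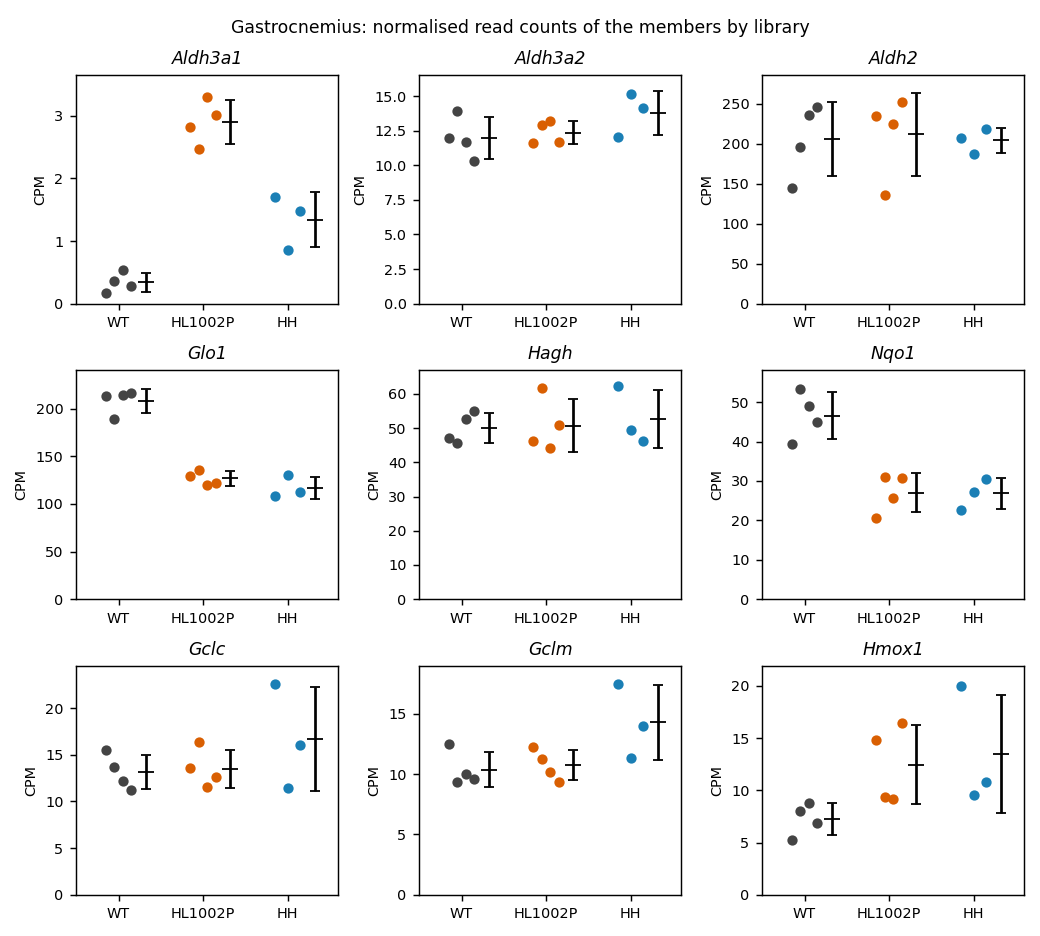
Normalised read counts (CPM, linear axis from 0) of the 9 measurable members in gastrocnemius, 1 panel a gene. Each point is a library and the bar beside it the mean with SD for 4 WT, 4 HL1002P and 3 HH libraries. Aldh3a1 stands above WT and Glo1 and Nqo1 below it in every mutant library, while Aldh3a2, Aldh2, Hagh and Gclc overlap.

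In fat, 3 of the 9 tested members changed in HL1002P (1 higher, 2 lower) and 2 of 9 in HH (1 higher, 1 lower). These counts stand beside a broad change of the tissue: 31.8% of all 16266 genes were called in HL1002P (17.3% higher, 14.5% lower) and 20.8% in HH (12.3% higher, 8.59% lower). The member counts are near those shares. Without Aldh3a1 and Glo1, picked for their difference in mutant muscle, 1 of 7 members was called in HL1002P and 0 of 7 in HH. Aldh3a1 rose in both mutants. Glo1 fell in both, and Gclm fell in HL1002P. The fat of the mutants also differed from WT in cell type markers, whose values are given below beside these results.

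Aldh3a1 was at 0.664, 0.673, 0.470 and 0.522 CPM in WT fat, 3.87, 2.53, 2.64 and 1.73 in HL1002P, and 2.43, 5.02, 4.76 and 2.48 in HH. The WT libraries were close together and all below the lowest mutant library, HL1002P 4. Groups did not overlap with WT for 27.5% of all genes in HL1002P fat and 25.9% in HH fat. The rise was log2 2.21 ± 0.35 in HL1002P (4.62-fold, edgeR adjusted p = 0.00775) and 2.65 ± 0.36 in HH (6.29-fold, edgeR adjusted p = 0.00905). Both calls held with each of 8 libraries left out in turn. The groups rest on 100, 476 and 559 counts.

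Glo1 was at 115.8, 130.4, 113.8 and 75.2 CPM in WT fat, 59.6, 53.8, 52.1 and 101 in HL1002P, and 69.9, 45.3, 45.0 and 66.8 in HH. HH did not overlap with WT, as was true of 25.9% of all genes, whereas HL1002P 4 lay within the WT range. The fall was log2 -0.71 ± 0.25 in HL1002P (edgeR adjusted p = 0.0498) and -0.94 ± 0.25 in HH (edgeR adjusted p = 0.0269). The HL1002P call was at the edge of the threshold and held in 2 of 8 fits with a library left out (without WT 4 or HL1002P 4). Without HL1002P 4 the fall was log2 -0.92 ± 0.20 (edgeR adjusted p = 0.00552). The HH call held in 4 of 8 such fits and was lost without WT 1, WT 2, HH 2 or HH 3.

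Gclm was at 30.2, 29.2, 23.3 and 29.6 CPM in WT fat, 15.4, 14.7, 18.1 and 23.2 in HL1002P, and 22.7, 16.8, 17.2 and 21.7 in HH. No mutant library reached the lowest WT library, though HL1002P 4 and HH 1 came within 1 CPM of it. Groups did not overlap for 27.5% of all genes in HL1002P and 25.9% in HH. Gclm fell by log2 -0.66 ± 0.17 in HL1002P (edgeR adjusted p = 0.0182), a call lost without WT 1, HL1002P 1 or HL1002P 2. In HH the difference of log2 -0.52 ± 0.17 just missed (edgeR adjusted p = 0.0514). Gclc, the catalytic partner, was at 34.1, 31.5, 68.5 and 75.7 CPM in WT, 46.7, 51.3, 46.0 and 70.2 in HL1002P, and 42.9, 57.2, 48.7 and 56.0 in HH. Its WT libraries fell into a low pair and a high pair, and the high pair were the WT libraries with Xist. Over all libraries its differences were log2 0.03 ± 0.27 in HL1002P and -0.04 ± 0.27 in HH. Among the libraries with Y-linked transcripts alone, a split chosen after the data were seen that leaves out the high WT pair, the values were 0.56 and 0.62, given as a description.

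The other members did not pass in fat, and their differences were mostly negative. Aldh3a2 was at 86.5 ± 12.4 CPM in WT, 67.5 ± 9.19 in HL1002P and 67.4 ± 8.29 in HH (SD, n = 4 each), with edgeR adjusted p of 0.0603 and 0.0744. Hagh was at 80.8 ± 17.2, 53.3 ± 13.1 and 55.0 ± 16.7 CPM (edgeR adjusted p = 0.0715 and 0.109). Aldh2 was at 779.3 ± 163.5, 484.0 ± 113.5 and 646.1 ± 242.8 CPM (edgeR adjusted p = 0.0783 and 0.484). Nqo1 was at 9.92, 9.10, 21.8 and 14.5 CPM in WT, 7.60, 7.67, 6.55 and 14.96 in HL1002P, and 9.55, 7.02, 6.18 and 8.59 in HH, and its groups overlapped (edgeR adjusted p = 0.179 and 0.0918). Hmox1 ranged from 45.5 to 117.3 CPM in WT, 53.6 to 134.6 in HL1002P and 59.8 to 148.7 in HH. Without HL1002P 4, Aldh3a2, Hagh and Nqo1 also passed in HL1002P, which made 6 members of 9, while the share of all genes called went from 31.8% to 42.6%. That fit set 3 HL1002P libraries with Y-linked transcripts against 2 WT libraries with Xist and 2 with Y-linked transcripts. Genotype and sex are therefore partly confounded in it. The main fat fit was unbalanced too, as each mutant had 1 library with Xist and 3 with Y-linked transcripts. With a sex covariate 27.4% of all genes were called in HL1002P fat and 15.3% in HH fat. Aldh3a1 was still called in both.

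**Figure D2:**
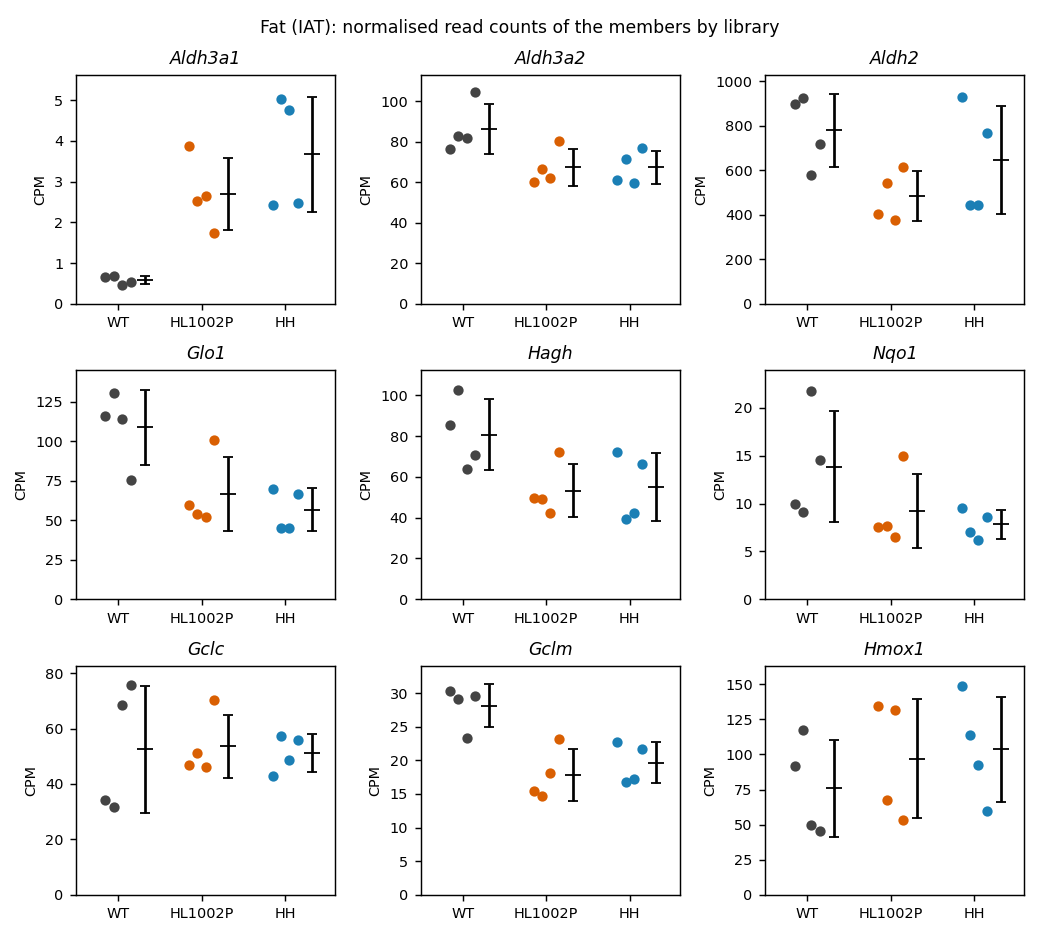
Normalised read counts (CPM, linear axis from 0) of the 9 measurable members in fat, with 4 libraries a genotype as points and the mean with SD as bars. Aldh3a1 is above WT in all 8 mutant libraries, Gclm is below WT in all 8, and 1 HL1002P library reaches the WT range of Glo1, Hagh and Nqo1.

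Lymphocyte markers moved with genotype in fat. Their summed level (15 genes, none at 0) was 86.5, 783.4, 657.4 and 530.6 CPM in WT, 4017, 4195, 3526 and 1549 in HL1002P, and 1887, 2518, 3560 and 1919 in HH. All 15 passed as higher in HL1002P and 12 of 15 in HH, and no mutant library overlapped with WT in the sum. Adipocyte markers summed to 24590 to 56190 CPM in WT, 15070 to 27630 in HL1002P and 16390 to 38820 in HH, with 6 of 11 lower in HL1002P and 1 of 11, Cfd, higher in HH. Endothelial markers (6 genes, none at 0) summed to 891.6 to 1367 CPM in WT, 591.5 to 838 in HL1002P and 659.9 to 880.9 in HH, with 4 lower in HL1002P and 3 in HH. Macrophage markers (16 genes, none at 0) summed to 2191 to 2553 CPM in WT, 2100 to 4738 in HL1002P and 2553 to 5353 in HH, with 4 higher in HL1002P and 2 in HH. Of all fat genes 17.3% were called higher and 14.5% lower in HL1002P, and 12.3% and 8.59% in HH. The macrophage counts are near those shares. Hmox1 was not called in fat, and its relation to the macrophage markers was not tested there. Fibroblast and tendon markers (9 genes) summed to 3586 to 8394, 2192 to 3846 and 1911 to 4351 CPM. Epithelial markers (11 genes, 1 at 0 in each group) ran from 5.93 to 1713 CPM in WT, and WT 3, WT 4 and HL1002P 4 (1076 CPM) were the 3 highest libraries. Muscle fibre markers (11 genes) summed to 262.6 to 12870 CPM in WT fat, 160.7 to 4706 in HL1002P and 47.45 to 12070 in HH. Of these markers 1 was called lower in HL1002P and 0 in HH. The part of the macrophage, adipocyte, endothelial, fibroblast, epithelial and muscle fibre markers in the members' differences was not tested.

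With the mean log2 level of the lymphocyte markers as a covariate, no member passed in either fat comparison, and neither did any other gene by edgeR (454 genes in HL1002P and 894 in HH had an unadjusted p under 0.05). Aldh3a1 was then higher by log2 1.95 ± 0.63 in HL1002P (edgeR adjusted p = 0.996) and 2.43 ± 0.59 in HH (edgeR adjusted p = 0.727). Glo1 was lower by log2 -0.27 ± 0.39 and -0.55 ± 0.36, and Gclm by -0.29 ± 0.26 and -0.19 ± 0.24, with edgeR adjusted p of 0.902 or more. Without the covariate the SEs in HL1002P were smaller, at 0.35 for Aldh3a1 and 0.25 for Glo1. Shifts of single estimates between the 2 fits are therefore not read as results. As the marker sums of WT and mutant fat do not overlap, genotype and lymphocyte marker level cannot be told apart. In muscle the same markers summed to 1.99 to 7.58 CPM over the 11 libraries, with 1 of the 15 at 0 in each mutant group.

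**Figure D3:**
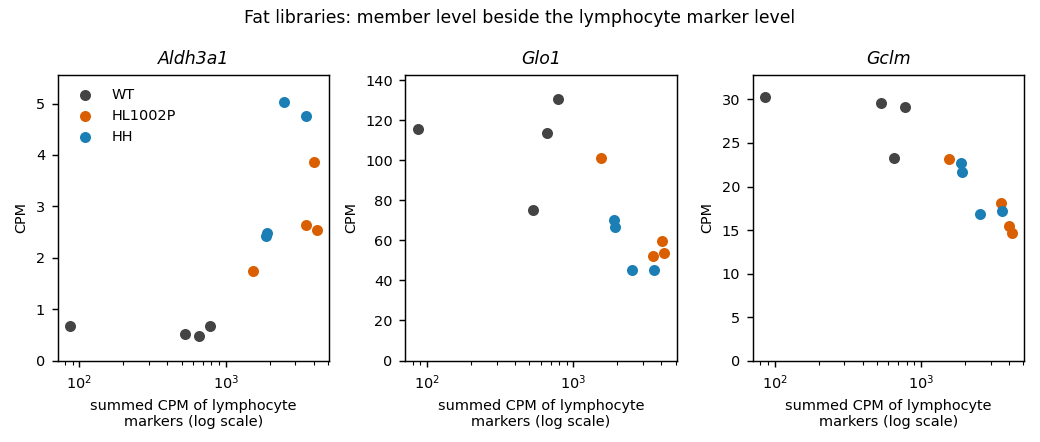
Level of Aldh3a1, Glo1 and Gclm (CPM, linear axis from 0) in each of 12 fat libraries against the summed CPM of 15 lymphocyte markers (log axis). The 4 WT libraries lie at 783.4 CPM or less on the marker axis and the 8 mutant libraries at 1549 or more. HL1002P 4, the mutant library lowest in the markers, has the highest Glo1 and Gclm and the lowest Aldh3a1 of the mutants.

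HL1002P and HH were compared directly in each tissue. In muscle edgeR called 0 of the 7 members other than Aldh3a1 and Glo1, where 0.0206% of all genes were called, and in fat 0 of 9, where 0% were. At an unadjusted p under 0.05 there was 1 in muscle (Gclm) and 0 in fat, beside 4.6% and 3.29% of all genes, and DESeq2 and limma voom also called 0. Gclm in muscle was lower in HL1002P than in HH by log2 -0.41 ± 0.16 (95% interval -0.76 to -0.06, edgeR adjusted p = 0.988). Nqo1, whose mutant groups both lay below WT, differed between them by log2 0.01 ± 0.16 (interval -0.34 to 0.36). For the chosen genes the muscle values are a description: Aldh3a1 was higher in HL1002P than in HH by log2 1.11 with no overlap between the groups, as held for 5.37% of all genes, and Glo1 by 0.12 with overlap. In fat Aldh3a1 differed by log2 -0.45 ± 0.33 (interval -1.18 to 0.28) and Glo1 by 0.23 ± 0.25 (interval -0.32 to 0.78). These intervals bound how far the mutants could differ and do not show that they are alike.

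Muscle and fat were then set against each other in 1 fit of all 23 libraries. Effects within a tissue are those of the fit of that tissue, as above. Differences between the effects come from the fit of all libraries, so they need not equal the gap between the former. For the 2 chosen genes the effects within each tissue are given side by side. Aldh3a1 was above WT by log2 3.08 in muscle and 2.21 in fat for HL1002P, and by 1.97 and 2.65 for HH. Glo1 was below WT by log2 -0.72 and -0.71 for HL1002P and by -0.83 and -0.94 for HH. Of the 7 other tested members, 1 had an effect that differed between the tissues in HL1002P and 1 in HH, against 18.5% (8.75% higher in muscle, 9.80% lower) and 7.23% (3.30% higher, 3.93% lower) of 12229 genes. It was Gclm in each case, which was at -0.66 in fat and 0.05 in muscle for HL1002P and at -0.52 and 0.46 for HH (log2 against WT, of which the HL1002P fat value passed), with a muscle minus fat difference of log2 0.65 ± 0.22 in HL1002P (edgeR adjusted p = 0.0431) and 0.91 ± 0.22 in HH (edgeR adjusted p = 0.0237). The first held in 4 of 16 fits with a library left out and the second in 11 of 15, lost without muscle HH 1, fat WT 1, fat HH 2 or fat HH 3. For Nqo1 the difference of the effects was log2 -0.23 ± 0.37 and -0.03 ± 0.39, and for Hmox1 0.36 ± 0.51 and 0.36 ± 0.53, neither past the test.

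**Figure D4:**
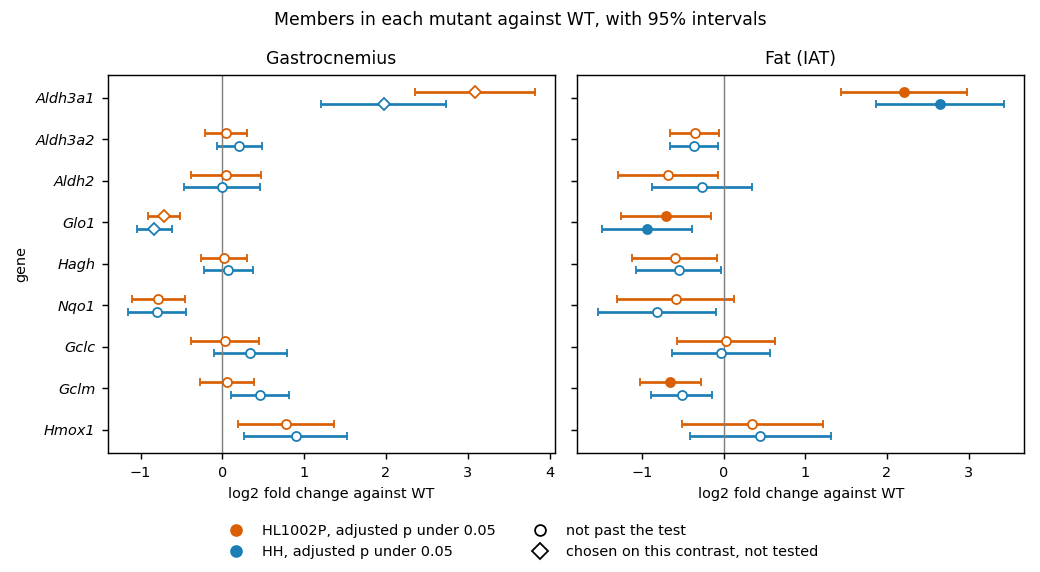
Log2 fold change of each member against WT with its 95% interval, in gastrocnemius and in fat, for HL1002P (orange) and HH (blue). Filled circles passed the edgeR test, open circles did not, and diamonds mark the 2 genes chosen on the muscle contrast, which carry no test. Aldh3a1 lies to the right of 0 and Glo1 to the left in both tissues, and Gclm is left of 0 in fat alone, where the HL1002P value passed.

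Without mutation, 6 of the 7 members other than Aldh3a1 and Glo1 differed between the tissues, against 78.7% of 14393 genes (35.6% higher in muscle, 43.1% lower), so most genes differed here. Nqo1 (log2 2.98 ± 0.28) and Hagh (0.54 ± 0.19) were higher in WT muscle. Hmox1 (log2 -2.16 ± 0.38), Aldh3a2 (-1.62 ± 0.13), Gclc (-0.77 ± 0.25) and Aldh2 (-0.69 ± 0.25) were lower there than in WT fat. Gclm (-0.21 ± 0.16, edgeR adjusted p = 0.221) did not pass. As a description, Glo1 was higher in WT muscle by log2 2.17 and Aldh3a1 by 0.46, the latter at -0.67 when scaled to library totals. These values depend on the scaling, since with library totals alone the median of all genes moved from -0.18 to -1.34 and Hagh turned to log2 -0.60 ± 0.17 (edgeR adjusted p = 0.0028). Relative to those medians Hagh was above the typical gene under either scaling.

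The regulators of the pathway were measured beside their targets. Nfe2l2 was at 44.5 ± 7.61, 44.0 ± 9.33 and 48.3 ± 12.4 CPM in WT, HL1002P and HH muscle and at 102.9 ± 4.68, 86.0 ± 10.6 and 91.9 ± 7.79 CPM in fat. Keap1 differed from WT by log2 -0.03 ± 0.08 and 0.01 ± 0.08 in muscle and by -0.02 ± 0.08 and 0.13 ± 0.08 in fat. Bach1 differed by log2 0.34 ± 0.21 and 0.51 ± 0.22 in muscle and 0.21 ± 0.17 and 0.38 ± 0.17 in fat. Bach1 did not overlap between HH and WT muscle, as held for 13.9% of all genes. None of these differences passed in edgeR, and the smallest edgeR adjusted p was 0.0732, for Nfe2l2 in HL1002P fat. DESeq2 called Nfe2l2 lower in HL1002P fat, beside 41.2% of all genes called there. Transcript levels say nothing of NRF2 protein or its place in the cell, which were not measured.

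Further genes of the pathway were taken from fixed lists, and in muscle edgeR called none of them in either mutant. Of all muscle genes it called only 0.117% in HL1002P and 0.377% in HH, so few calls could fall among them. The lists held 10 NRF2 regulators, 28 other NRF2 targets, 16 other aldehyde dehydrogenases, 20 carbonyl reductases and glyoxal enzymes and 6 regulators and targets of the aryl hydrocarbon receptor (AhR) that could be tested. At an unadjusted p under 0.05 they numbered 0, 0, 2, 0 and 0 in HL1002P and 1, 8, 3, 7 and 2 in HH, beside 10.5% and 16.6% of all genes. DESeq2 called 0 in HL1002P and 2 in HH, the glutathione transferase Gsta3 (log2 1.72 ± 0.37 by edgeR) and the lysine-pathway dehydrogenase Aldh7a1 (log2 -0.67 ± 0.19 by edgeR), and limma voom called 0. Of all 14580 genes DESeq2 called 188 in HL1002P muscle and 653 in HH muscle. The median log2 difference of the NRF2 targets was 0.06 in HL1002P and 0.10 in HH, beside 0.004 and 0.01 for all genes.

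In fat the same lists held called genes, mostly lower ones. The counts below stand beside 17.3% of all fat genes called higher and 14.5% lower in HL1002P, and 12.3% and 8.59% in HH, and some are near those shares. Of 30 NRF2 targets tested, 9 were lower in HL1002P and 4 in HH, none higher, and the medians were log2 -0.38 and -0.24 beside -0.07 and -0.06 for all genes. Lower genes included Pgd (log2 -1.16 ± 0.30 in HL1002P) and G6pdx (-1.14 ± 0.32 in HL1002P), which make NADPH in the pentose phosphate pathway, and the conjugate exporter Abcc3 (-1.15 ± 0.32 in HL1002P and -1.09 ± 0.32 in HH). Srxn1, which repairs overoxidised peroxiredoxins, was lower by log2 -0.89 ± 0.22 in HH, and glutathione synthetase Gss by -0.86 ± 0.24 there. The fourth lower target in HH was the thioredoxin reductase Txnrd1 (log2 -0.33 ± 0.10). Among NRF2 regulators 3 of 10 were lower in HL1002P, namely Nfe2l1 (log2 -0.99 ± 0.26), Sqstm1 (-0.58 ± 0.17) and Mafg (-0.56 ± 0.18), and 0 of 10 in HH by edgeR (3 at an unadjusted p under 0.05, 1 by DESeq2, 0 by limma voom).

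Other aldehyde dehydrogenases went in both directions in fat, with 1 higher and 4 lower of 16 in HL1002P and 2 higher and 2 lower in HH. Mitochondrial Aldh1b1, the close relative of Aldh2, rose in each, from 2.25 CPM in WT to 6.02 in HL1002P (log2 1.42 ± 0.37) and 5.72 in HH (1.35 ± 0.37). Aldh1a2, which makes retinoic acid, fell by log2 -0.99 ± 0.22 and -1.01 ± 0.22, and Aldh7a1 by -0.83 ± 0.21 and -0.72 ± 0.21. Aldh3b2 (log2 -1.60 ± 0.45) and the succinate semialdehyde dehydrogenase Aldh5a1 (-0.65 ± 0.21) fell in HL1002P, and Aldh16a1 (0.46 ± 0.14) rose in HH. Of 22 carbonyl reductases and glyoxal enzymes 4 fell in each mutant and none rose, beside 14.5% and 8.59% of all genes called lower. Akr1b8, an aldose reductase relative, fell by log2 -1.21 ± 0.33 and -1.25 ± 0.34, Akr1e1 by -0.76 ± 0.20 and -1.01 ± 0.20, the aldehyde oxidase Aox1 by -1.35 ± 0.40 in HL1002P, and Akr1c18 by -2.15 ± 0.68 in HH. Dcxr, a xylulose and dicarbonyl reductase, fell by log2 -0.70 ± 0.21 and -0.64 ± 0.21. With a sex covariate Aldh1b1, Aldh16a1, Akr1c18 and Dcxr were no longer called in HH, nor Aldh5a1 in HL1002P. All genes called were then 15.3% in HH and 27.4% in HL1002P. Limma voom did not call Akr1c18 or Dcxr in HH either.

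AhR targets were listed because AhR also drives Aldh3a1 in other tissues. Cyp1b1, an AhR target that stromal cells also make, rose in mutant fat from 41.4 CPM to 82.4 in HL1002P (log2 0.99 ± 0.27) and 100.7 in HH (1.28 ± 0.27). Tiparp, another target, fell by log2 -0.73 ± 0.16 and -0.88 ± 0.17, and Ugt1a6a by -1.86 ± 0.62 in HL1002P. Of 7 tested genes 1 was higher and 2 lower in HL1002P, and 1 higher and 1 lower in HH. These list counts, like those of the members, moved with single libraries: the lower NRF2 targets in HL1002P numbered 1 to 12 with a library left out, fewest without WT 1, HL1002P 1 or HL1002P 2, and the 4 in HH became 0 without WT 1, WT 2 or HH 3. With a sex covariate Mafg and Ugt1a6a no longer passed in HL1002P. With the lymphocyte covariate no gene of any list passed. Between HL1002P and HH fat edgeR called no gene of these lists.

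**Figure D5:**
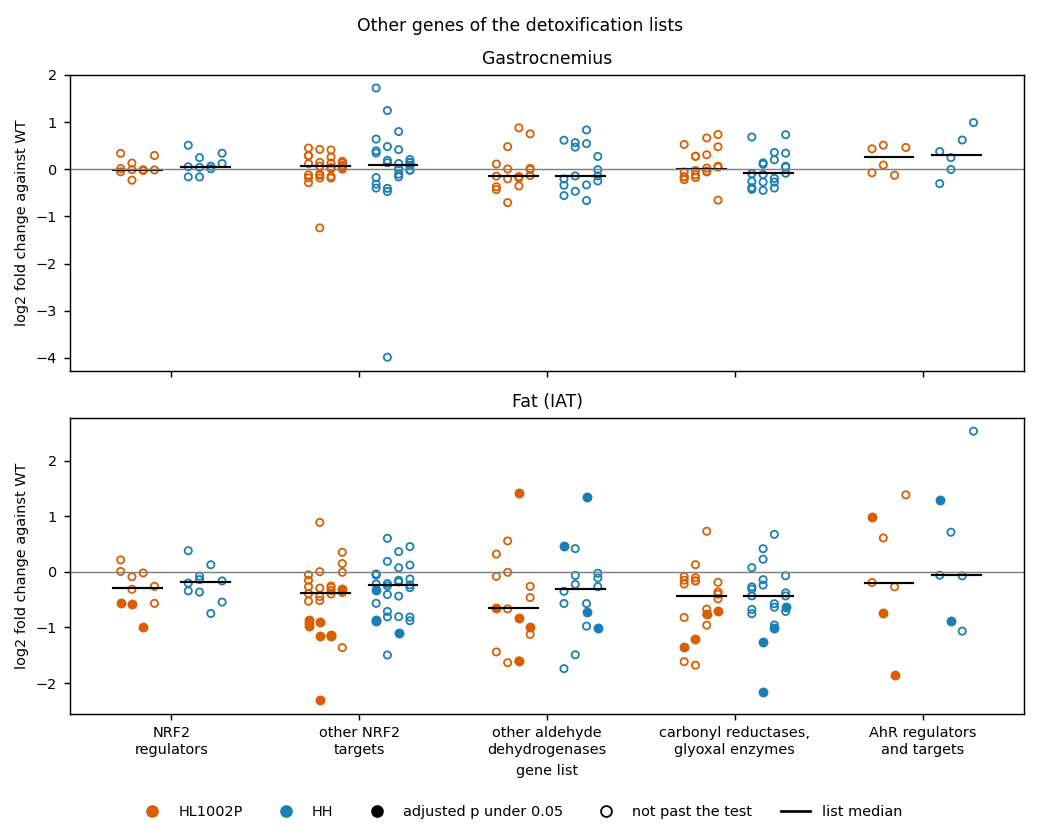
Log2 fold change against WT of the other genes of 5 lists in gastrocnemius (top) and fat (bottom), HL1002P in orange and HH in blue, with the list median as a bar. Filled points passed the edgeR test and open points did not. No point is filled in muscle, and in fat the filled points are mostly below 0.

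Genes around the 2 chosen members were read from the annotation. Aldh3a1 lies between Usp22, a deubiquitinase gene, and Aldh3a2, which differed from WT in muscle by log2 0.08 ± 0.08 and 0.04 ± 0.12 in HL1002P and by -0.05 ± 0.09 and 0.20 ± 0.13 in HH. Of all muscle genes edgeR called 0.117% in HL1002P and 0.377% in HH. Within 0.5 Mb of Aldh3a1 it called 0 of 19 tested genes in either mutant muscle. Glo1 lies between Gm6402 and 1700097N02Rik, and within 0.5 Mb 0 of 3 tested genes were called, with Gm6402 at log2 -0.21 ± 0.28 and -0.15 ± 0.30. In fat 3 higher and 3 lower of 21 genes near Aldh3a1 were called in HL1002P and 3 and 2 in HH, and near Glo1 2 higher of 5 and 1 higher of 5, beside 31.8% and 20.8% of all fat genes called.

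Genes most like Aldh3a1 and Glo1 across libraries were found by Pearson's r of log2 CPM, a description in which differences between genotypes shared by the libraries weigh most. In the 11 muscle libraries, over 12143 genes, those most like Aldh3a1 were Ltbp2 (r = 0.919), Wdr78 (0.908) and Duoxa1 (0.907). Those most like Glo1 were Ndufaf1 (r = 0.973), Pick1 (0.961) and Adal (0.936). Duoxa1, Ndufaf1 and Adal lie on chromosome 2, between 119655446 and 122313763, and Bub1b lies on the same chromosome at 118598202 to 118641592. In the 12 fat libraries, over 14348 genes, Spock3 (r = 0.977), Fam117a (0.970) and Rnf157 (0.968) were most like Aldh3a1, and Rnd3 (0.969), Irak2 (0.965) and Bod1 (0.965) most like Glo1. No gene named for muscle was among those named for fat.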

How the data were processed

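The authors deposited a table of raw read counts per gene symbol for 23 libraries. Reads were aligned with TopHat2 2.0.14 and Bowtie2 2.2.6 to mm10 and counted with featureCounts 1.4.6, per the submitters' processing notes. For annotation, strand setting and reads with several hits, settings are not given in the sources used here. Libraries were made with TruSeq v2, per the labels' protocols, a kit that does not keep strand, so overlapping antisense transcripts cannot be told apart.

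Tests on these counts used edgeR 4.0.16 (R 4.3.3): scaling by TMM, filterByExpr by group, quasi-likelihood F tests and Benjamini-Hochberg adjustment over all genes, with 1 fit per tissue and 1 fit of all libraries for comparisons between tissues. Log2 CPM used a prior count of 2. Errors after ± are SD for levels and SE for log2 differences. The procedure was tested on simulated data. Alternatives were other scaling, filters, DESeq2 1.42.0, limma voom 3.58.1, a replicate block, covariates for sex and marker level, the compared groups alone, and leaving out each library. A fit of the libraries with Y-linked transcripts alone was chosen after seeing the data.

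The members and lists were chosen with earlier results of these data known. Named beside the members were Bub1b, Nfe2l2, Keap1 and Bach1, up to 3 called genes of each list with the largest change, a mean of at least 1 CPM and no overlap between groups, the genes flanking Aldh3a1 and Glo1, and the 3 genes most correlated with each (predicted genes and clone names passed over). Mafg, Txnrd1, Aldh3b2, Aldh5a1, Aldh16a1, Dcxr, Ugt1a6a and Cyp1a1 in fat, and Gsta3 and Aldh7a1 in muscle, were added after their values were seen. Of the 24062 symbols 22550 matched RefSeq.

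Same-numbered HL1002P and HH muscle libraries deviated together (3 pairs, r = 0.217 to 0.286), and blocking on the number changed no member's call there. In every other comparison the lowest r of a pair was 0.0894 or less. No source ties the numbers to mice.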

Additional observations from a re-analysis of the deposited data

Results flagged for a closer look

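Among 46 sets of 4 libraries of 1 group, 5 had a library far from the other 3 by Dixon's gap rule at the 95% level. Chance gives about 1 in 20 such sets. In muscle, Glo1 of WT 2 was at 189.2 CPM beside 213.6 to 216 in the other WT libraries. In fat, HL1002P 4 stood apart for Glo1 (101 CPM beside 52.05 to 59.6) and for Nqo1 (14.96 CPM beside 6.548 to 7.667), toward the WT level in both. Gclm of fat WT 3 was at 23.32 CPM beside 29.17 to 30.23, toward the mutant level. Akr1b3 of fat WT 1 was at 0.02213 CPM beside 0 in the other 3, which is a single count.

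The effect of genotype on Gclm differed between muscle and fat in the edgeR fit, by log2 0.6488 in HL1002P and 0.912 in HH.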

How the results depend on the processing

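Counts of called members moved with the test and with single fat libraries, as did the share of all genes called. In muscle, DESeq2 called 1 member (Nqo1) in HL1002P and 1 in HH, the replicate block 1 in each (Nqo1), and the sex covariate 1 in HH. Of all 14580 muscle genes, DESeq2 called 188 and 653, the replicate block 22 and 203, and the sex covariate 225 in HH. In fat, DESeq2 called 6 in HL1002P and 5 in HH, the libraries with Y-linked transcripts alone 6 and 5, and the lymphocyte covariate 0 and 0. Leaving out a library gave 1 to 6 members in HL1002P fat (1 without WT 1, HL1002P 1 or HL1002P 2, and 6 without HL1002P 4) and 1 to 3 in HH fat (1 without WT 1, WT 2, HH 2 or HH 3). The share of all genes called in those fits ran from 12.2% to 42.6% in HL1002P and from 5.01% to 25.5% in HH. For the difference between tissues, library totals, no filter and the replicate block each gave 0 members in HL1002P, and leaving out a library gave 0 to 2 in HL1002P and 0 to 1 in HH. Over all genes, leaving out a library gave 820 to 4096 calls in HL1002P and 132 to 1735 in HH. The replicate block gave 4 members in HH fat (Aldh3a1, Aldh3a2, Glo1 and Gclm), and in HL1002P fat 3, with Aldh3a2 in place of Glo1. It called 21.5% of all genes in HH fat and 31.0% in HL1002P fat.

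Of 1407 values of a member under an alternative, 1236 had the same direction and side of the threshold, 46 were no longer past it, 30 were newly past it, 92 changed sign within 1 SE of 0, and 3 reversed. Those were Gclc in HH fat with Y-linked libraries alone (log2 0.6172), and Aldh3a1 (-0.6661) and Hagh (-0.5953) between WT tissues with library totals. The causes were not tested. Over all genes, library totals moved the share of calls that were higher from 54.5% to 70.4% in HL1002P fat, 58.8% to 71.8% in HH fat, 52.7% to 66.7% in HH muscle, 47.2% to 32.7% for the HL1002P difference between tissues and 45.2% to 16.2% between WT tissues. All genes called numbered 17, 55 and 3 in muscle (HL1002P, HH, and HL1002P against HH) and 188, 653 and 41 with DESeq2. Other counts in HL1002P and HH muscle were 9 and 44 with limma voom, 5 and 30 with the macrophage covariate, 8 and 85 with the compared groups alone and 2 and 6 in Y-linked libraries alone. HL1002P muscle had 10 with library totals and 11 with a stricter filter, and HH muscle had 225 with the sex covariate and 203 with the replicate block. In fat they numbered 5167, 3391 and 0 (6707, 5210 and 20 with DESeq2), and 829 to 7018 over the mutant comparisons with WT when a library was left out. Depth limits Aldh3a1, with 62 to 559 counts a group, and Akr1b3.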
